A study of Mus musculus with 10 samples.

Results

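Hox genes and 5 further transcription factors of gut position (Cdx1, Cdx2, Gata4, Gata6 and Pdx1) were followed in the terminal ileum of 10 mice. The Hox genes were all rows of the deposited table whose single gene symbol was Hoxa, Hoxb, Hoxc or Hoxd with a number, and the probe set with the largest average across the 10 arrays stood for its gene. This gave 33 Hox genes and, with the 5 factors, 38 genes on 58 probe sets, of 18193 genes with a single symbol in the table. Of the 38, 21 had a mean above a floor of 4.15 on the log2 scale, below which the lowest 40 percent of probe sets lay, and these 21 were tested among 13666 genes. They were 17 Hox genes and every further factor except Pdx1.

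The study compared 5 stressed with 5 control mice, all male C57BL/6JJmsSlc mice of 7 weeks, with 1 Affymetrix 3' expression array for each mouse. The stressed mice had been intruders in the cages of older ICR males over 10 days of subchronic mild social defeat, with 5 min of physical contact on the first day and 0.5 min on the last. Control mice were not stressed. All ate the purified AIN-93G diet, lived singly during habituation and were fasted for 3 h before the lower small intestine was taken. Whole ileum was measured, so fewer cells of a type and less RNA per cell cannot be told apart.

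Hox genes encode homeodomain transcription factors and lie in separate clusters named A to D. Within a cluster the order of the genes follows the order in which they are expressed along the body from head to tail, and genes with the same number in different clusters are paralogs. In the gut they are expressed largely in the mesoderm-derived layers, and the genes with the highest numbers mark its hindmost part. Cdx1 and Cdx2 specify intestinal epithelium and regulate Hox genes in the embryo, Gata4 maintains the character of the proximal small intestine, Gata6 acts along the whole intestine, and Pdx1 acts in duodenum and pancreas.

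The array of control mouse 1 stood apart from the other 9. Across the 13666 genes it correlated with them at 0.918 to 0.947, against 0.975 to 0.995 among the 9. Its values also went against its label of terminal ileum for several defining markers. Fabp6, the ileal bile acid binding protein, was at 7.88 on the log2 scale in control mouse 1 and at 13.88 to 14.10 in the other arrays. Car1, the carbonic anhydrase of colonic epithelium, was at 14.17 in control mouse 1, at 13.32 in stressed mouse 4 and at 4.95 to 7.42 in the other 8. Comparisons of stressed with control mice were therefore made both with 10 arrays and without control mouse 1.

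The Hox genes above the floor in the ileum carried the paralog numbers 2 to 9. In the Hoxa cluster they were Hoxa3, Hoxa5, Hoxa7 and Hoxa9, and in the Hoxb cluster Hoxb2, Hoxb3, Hoxb4, Hoxb5, Hoxb6 and Hoxb9. In the Hoxc cluster they were Hoxc4, Hoxc5, Hoxc6, Hoxc8 and Hoxc9, and in the Hoxd cluster Hoxd8 and Hoxd9. Of these 17 genes 16 were above the floor in every array, and Hoxc8 fell below it in control mouse 1 alone. The mean of the other 16 Hox genes was below the floor, and 12 of these were below it in every array. None of the 10 genes with paralog number 10 or higher had a mean above the floor. Just below it was Hoxd13, the gene at the hindmost end of its cluster, with a mean of 4.05 and 3 arrays above the floor. Levels of different probe sets depend on the probes and were not ranked against one another.

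The 4 genes that passed the floor in some arrays only were Hoxa10, Hoxc10, Hoxd10 and Hoxd13. Hoxd10 was at 2.99, 2.34, 2.76, 4.46 and 2.64 in stressed mice 1 to 5, against 7.30, 2.75, 2.56, 2.85 and 2.74 in control mice 1 to 5. It was thus above the floor in control mouse 1 and stressed mouse 4, the arrays with the highest Car1. Hoxa10 was at 2.23, 2.00, 2.45, 2.63 and 1.94 in stressed mice, against 5.01, 2.02, 2.24, 2.17 and 2.07 in control mice. Control mouse 1 was the 1 array above the floor for Hoxa10, and stressed mouse 4 was next, below the floor. Hoxc10 was at 4.98, 3.65, 3.66, 3.99 and 3.77 in stressed mice, against 4.03, 3.70, 3.59, 3.41 and 3.29 in control mice. It passed the floor in stressed mouse 1 only, and in control mouse 1 it lay within the range of the other arrays.

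Upstream sequences are shown for 4 genes that were higher in control mouse 1 than in any other array, Hoxd10, its neighbours Hoxd9 and Hoxd8, and Hoxa10. The sequences are the 250 bases before each start in RefSeq, assembly GRCm38.p6, where 21 of the 38 genes had an entry and Hoxa10 had a pair of starts. Capitals mark matches on either strand to TTTAT, the core recognised by Cdx and posterior Hox proteins, and to CCAAT, the box bound by NF-Y.
Hoxd10, chr2:74691641-74691890, plus strand: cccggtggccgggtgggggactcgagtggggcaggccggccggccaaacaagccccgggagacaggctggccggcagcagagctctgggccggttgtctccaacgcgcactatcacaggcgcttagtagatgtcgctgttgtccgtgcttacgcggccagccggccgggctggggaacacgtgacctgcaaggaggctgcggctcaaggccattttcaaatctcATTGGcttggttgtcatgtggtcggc
Hoxd9, chr2:74697513-74697762, plus strand: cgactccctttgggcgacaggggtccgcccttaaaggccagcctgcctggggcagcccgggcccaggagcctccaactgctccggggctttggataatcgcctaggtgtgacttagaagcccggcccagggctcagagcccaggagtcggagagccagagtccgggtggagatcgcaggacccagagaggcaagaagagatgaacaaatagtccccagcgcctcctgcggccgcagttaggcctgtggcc
Hoxd8, chr2:74704365-74704614, plus strand: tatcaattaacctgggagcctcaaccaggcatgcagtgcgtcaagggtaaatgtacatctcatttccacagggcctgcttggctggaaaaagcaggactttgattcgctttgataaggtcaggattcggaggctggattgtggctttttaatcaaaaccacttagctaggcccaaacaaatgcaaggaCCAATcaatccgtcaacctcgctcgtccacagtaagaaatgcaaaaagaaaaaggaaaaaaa
Hoxa10, outer start, chr6:52240855-52241104, minus strand: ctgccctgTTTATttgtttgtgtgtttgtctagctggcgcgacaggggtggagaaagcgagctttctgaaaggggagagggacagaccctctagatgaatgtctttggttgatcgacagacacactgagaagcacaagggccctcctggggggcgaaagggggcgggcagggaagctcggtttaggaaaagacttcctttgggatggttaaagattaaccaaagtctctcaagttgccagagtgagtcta
Hoxa10, start nearer to Hoxa9, chr6:52234940-52235189, minus strand: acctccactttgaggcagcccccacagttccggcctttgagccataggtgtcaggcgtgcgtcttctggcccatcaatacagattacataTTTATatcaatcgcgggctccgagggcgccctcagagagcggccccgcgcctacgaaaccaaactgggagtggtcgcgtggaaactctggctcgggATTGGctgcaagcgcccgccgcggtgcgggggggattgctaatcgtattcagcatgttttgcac
TTTAT or its reverse ATAAA was found in 37.3% of all 32851 promoter windows of this length and in 30.4% of the 23 windows of these genes. CCAAT or ATTGG was found in 33.8% of all windows and in 56.5% of the 23. The joint site of PBX and Hox proteins, TGATNNAT, was found in 7.68% of all windows and in 3 of the 23, in none of those printed. The GATA factor site AGATAA, with its reverse TTATCT, was found in 9.99% of all windows and in 0 of the 23. A match describes letters in a window and not a bound site.

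Control mouse 1 differed from the other arrays upward in the Hoxb and Hoxd genes and downward in the Hoxc genes. Among the 17 Hox genes above the floor, 9 were higher in control mouse 1 than in any other array, where 34.6% of all tested genes were. A further 6 of the 17 were lower than in any other array, where 18.6% of all tested genes were. The 9 were Hoxa9, all 6 Hoxb genes and both Hoxd genes. The 6 were Hoxa5 and all 5 Hoxc genes above the floor. For Hoxa5 this held for the probe set that stood for the gene, whose probes can match other transcripts, while its other probe set was highest in control mouse 1. A single array has no replicate, so these differences have no test.

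**Figure D1:**
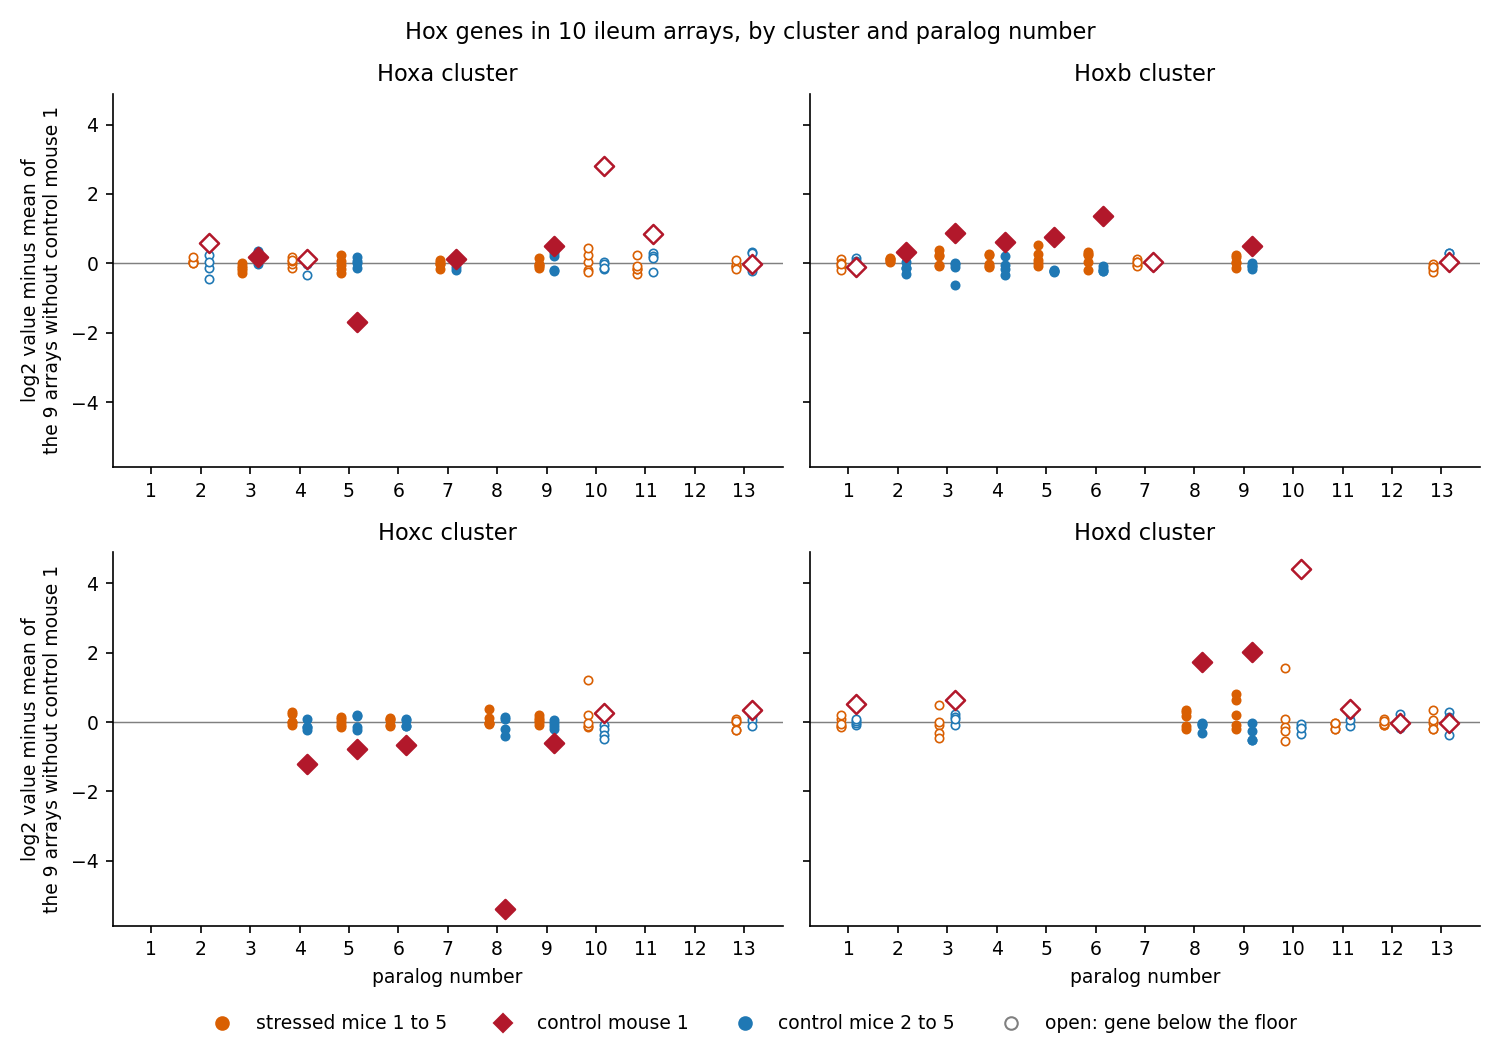
Log2 value of each Hox gene minus the mean of the 9 arrays without control mouse 1, by paralog number, 1 panel for each cluster, with stressed mice in orange on the left of each number and, on the right, control mouse 1 as a red diamond and control mice 2 to 5 in blue. Open symbols mark genes whose mean is below the floor, and values below the floor are plotted as measured. Control mouse 1 lies above the others at Hoxd8, Hoxd9, Hoxd10 and Hoxa10 and below them at Hoxc4 to Hoxc9.

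In the Hoxd cluster control mouse 1 was above every other array at the neighbours Hoxd8, Hoxd9 and Hoxd10. Control mouse 1 minus the mean of the other 9 arrays was 1.72 for Hoxd8 and 2.02 for Hoxd9. For Hoxd10, below the floor in 8 of the other 9 arrays, only a bound can be given, and with values under the floor set to it control mouse 1 was at least 3.12 higher. Hoxd11, next in the cluster, was at 3.23 in control mouse 1 and at 2.65 to 3.17 in the other arrays, all below the floor. Hoxd12 and Hoxd13 were within the range of the other arrays. On the other side, and below the floor, Hoxd3 was at 3.90 in control mouse 1 and at 2.80 to 3.75 in the others, and Hoxd1 was at 2.64 and at 1.99 to 2.32.

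In the Hoxa cluster control mouse 1 was above every other array at Hoxa9, Hoxa10 and Hoxa11. Hoxa10, below the floor in all the other 9 arrays, was at least 0.86 higher in control mouse 1. Hoxa11 was at 4.06 in control mouse 1 and at 2.91 to 3.53 in the others, all below the floor, and Hoxa13 was within their range. Hoxa9 was 0.51 higher and Hoxa7 0.13 higher, the second of these within the range of the other arrays. Another probe set of Hoxa9 was 2.25 higher. At the front of the cluster, Hoxa2 was at 3.22 in control mouse 1 and at 2.19 to 2.88 in the other arrays, and Hoxa4 was within their range, both below the floor.

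In the Hoxb cluster the 6 genes above the floor were all higher in control mouse 1, from 0.33 for Hoxb2 to 1.36 for Hoxb6. Hoxb6 was at 7.64, 7.39, 7.60, 7.69 and 7.16 in stressed mice, against 8.72, 7.28, 7.14, 7.21 and 7.14 in control mice. Control mouse 1 was above every other array, and stressed mouse 5 was the 1 stressed array inside the range of control mice 2 to 5. Hoxb13, the hindmost Hoxb gene, was at 2.96 in control mouse 1 and at 2.67 to 3.23 in the other arrays, below the floor throughout. Hoxb1 and Hoxb7, also below the floor in every array, were within the range of the other arrays. For Hoxb7 this is the probe set that carries its name alone. A probe set shared by Hoxb8 and Hoxb7, not used for genes, was at 7.87 in control mouse 1 and at 6.49 to 7.21 in the others.

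The Hoxc cluster went the other way. Hoxc8, which in the mouse embryo patterns the thoracic region, was at 8.37, 7.95, 8.11, 7.96 and 7.95 in stressed mice, against 2.61, 8.13, 7.59, 7.80 and 8.07 in control mice. Control mouse 1 was the 1 array below the floor, so only a bound can be given, and it was at least 3.84 below the mean of the other 9 arrays. Hoxc4 differed by -1.21, Hoxc5 by -0.77, Hoxc6 by -0.67 and Hoxc9 by -0.59. Hoxc13, at the hind end of the cluster and below the floor in every array, was at 3.77 in control mouse 1 and at 3.19 to 3.63 in the other arrays. Stressed mouse 4, whose Hoxd10 and Car1 were high, had Hoxc8 at 7.96, within the range of the other stressed mice.

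**Figure D2:**
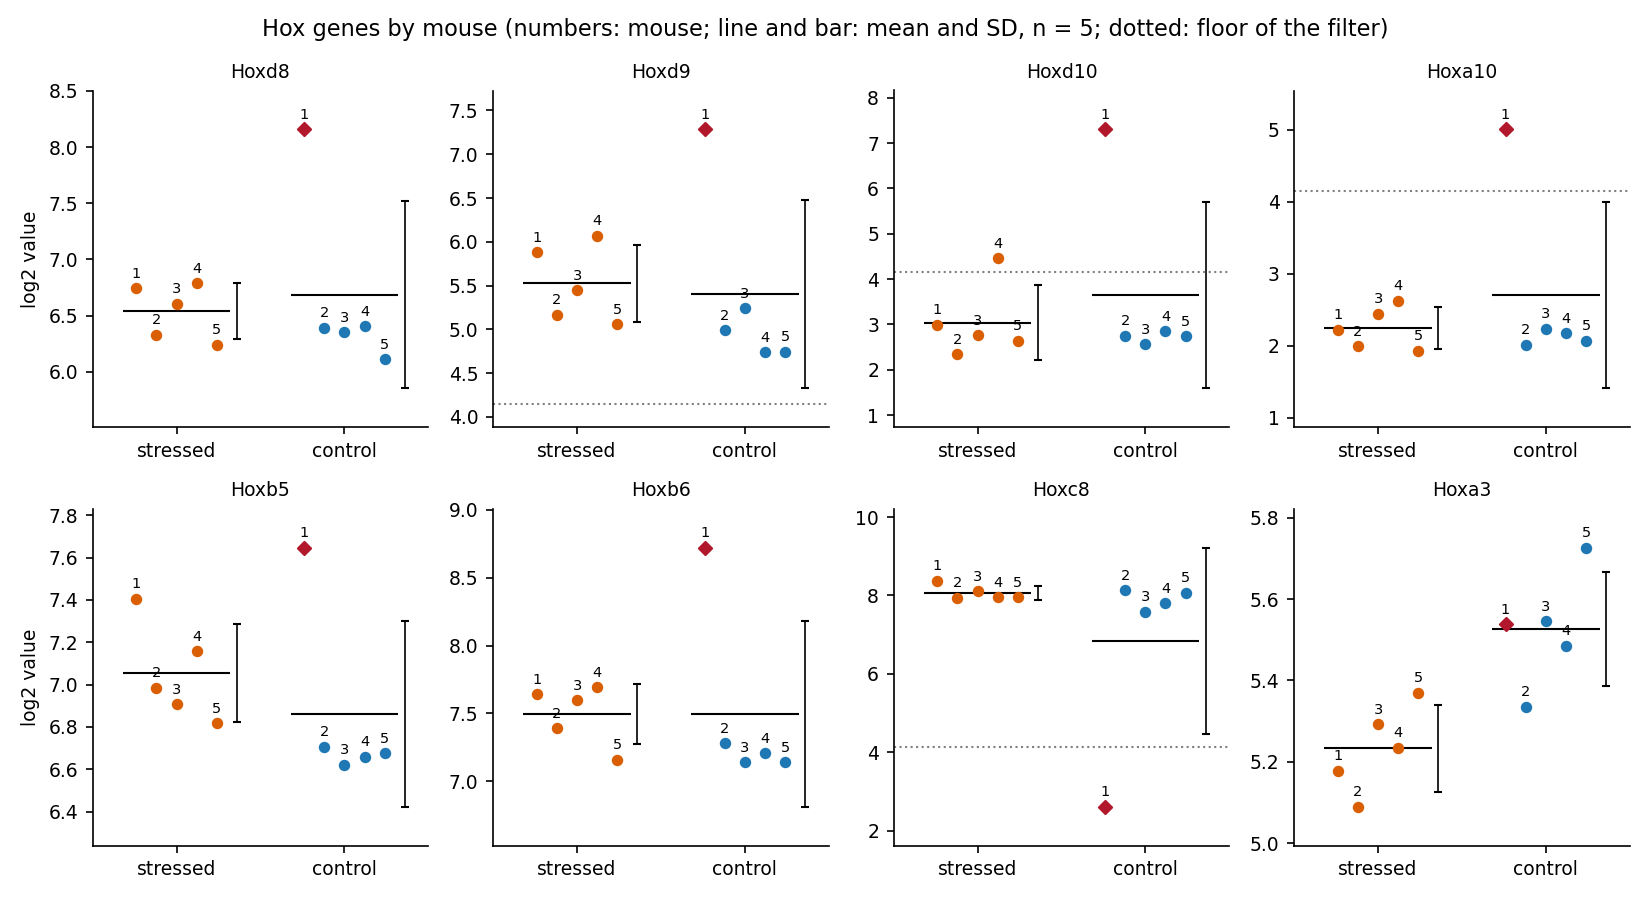
Log2 values of 8 Hox genes by mouse, stressed mice on the left and control mice on the right of each panel, with the mouse number beside each point, the mean as a line, the SD over 5 mice as a bar beside it and the floor as a dotted line. Control mouse 1 stands far above the others for Hoxd8, Hoxd9, Hoxd10, Hoxa10 and Hoxb6 and far below them for Hoxc8, and stressed mouse 4 is the highest stressed mouse for Hoxd8, Hoxd9, Hoxd10, Hoxa10 and Hoxb6.

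The stress comparison asked which transcripts differ in the ileum after repeated mild defeat. After Benjamini-Hochberg adjustment, none of the 21 genes had a limma p under 0.05 with 10 arrays, where 0.0% of all tested genes did, or without control mouse 1, where 0.798% did. At an unadjusted p under 0.05, limma had 1 of the 21 with 10 arrays (7.82% of all tested genes) and 7 without control mouse 1 (18.0% of all tested genes). The 7 were Hoxb2, Hoxb3, Hoxb5, Hoxb6 and Hoxd9, at higher values in stressed mice, and Hoxa3 and Gata4, at lower values. With 10 arrays the 1 was Hoxa3, lower in stressed mice (3.96% of all tested genes). No gene of the 21 had all stressed mice below all control mice, with 10 arrays (1.12% of all tested genes) or without control mouse 1 (2.72%). Over the 17 Hox genes the median of stressed minus control was 0.13 with 10 arrays and 0.15 without control mouse 1, against 0.003 and 0.03 over all tested genes. In both comparisons 12 of the 17 were higher and 5 lower in stressed mice, where 50.9% and 56.2% of all tested genes were higher.

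Hoxd9, a posterior paralog with known roles in limb and hindgut, had the widest difference of the 21 genes without control mouse 1, each read from the probe set that stood for it. Its log2 values were 5.88, 5.17, 5.45, 6.07 and 5.06 in stressed mice, against 7.28, 4.99, 5.24, 4.74 and 4.75 in control mice. Stressed mice 1 and 4 were highest after control mouse 1, and stressed mice 2 and 5 lay inside the range of control mice 2 to 5. It averaged 5.53 ± 0.44 (SD, n = 5) in stressed mice and 4.93 ± 0.24 (SD, n = 4) in control mice 2 to 5, a limma difference of 0.60 ± 0.20 (SE) at an adjusted p of 0.161. With 10 arrays the difference was 0.13 ± 0.44 (SE) at a limma adjusted p of 0.962. Without stressed mouse 4 as well as control mouse 1 it was 0.46 ± 0.18 (SE), and without stressed mice 1 and 4 as well it was 0.30 ± 0.14 (SE).

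Hoxb5, which in mice acts in the enteric nervous system and other foregut and midgut derivatives, separated the groups once control mouse 1 was left out. It was at 7.41, 6.99, 6.91, 7.16 and 6.82 in stressed mice, against 7.65, 6.71, 6.62, 6.66 and 6.68 in control mice. Every stressed mouse was above control mice 2 to 5 and below control mouse 1, a separation upward that 4.51% of all tested genes had without control mouse 1. The means were 7.05 ± 0.23 (SD, n = 5) in stressed mice and 6.67 ± 0.04 (SD, n = 4) in control mice 2 to 5. The limma difference was 0.39 ± 0.11 (SE) at an adjusted p of 0.108, and 0.19 ± 0.20 (SE) at an adjusted p of 0.839 with 10 arrays. Without stressed mice 1 and 4 as well as control mouse 1 it was 0.24 ± 0.08 (SE). With the mean of the smooth muscle markers as a covariate, a fit outside the planned ones, Hoxb5 was called without control mouse 1. Its difference there was 0.37 ± 0.06 (SE) at a limma adjusted p of 0.0312, and no other gene of the 21 was called. The same fit called 334 of all 13666 tested genes, against 109 in the fit that lacked the covariate. The call is therefore not particular to Hoxb5. With 10 arrays and that covariate the limma adjusted p of Hoxb5 was 0.104.

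The other Hoxb genes differed less than Hoxb5 without control mouse 1, with higher values in stressed mice. Hoxb6 differed by 0.30 ± 0.11 (SE), control mouse 1 aside, at a limma adjusted p of 0.177, and by -0.001 ± 0.28 (SE) with 10 arrays. Without stressed mice 1 and 4 as well as control mouse 1 Hoxb6 differed by 0.19 ± 0.11 (SE). Hoxb3 was at 7.15, 6.86, 7.19, 7.32 and 6.91 in stressed mice, against 7.82, 6.84, 6.31, 6.97 and 6.94 in control mice, and the groups overlapped. Its difference was 0.32 ± 0.14 (SE) without control mouse 1 and 0.11 ± 0.23 (SE) with 10 arrays. Hoxb2, a gene of hindbrain patterning in the embryo, was at 6.82, 6.82, 6.74, 6.83 and 6.71 in stressed mice, against 7.01, 6.56, 6.37, 6.55 and 6.74 in control mice. The 5 stressed mice lay within a narrow band that control mouse 5 entered and control mouse 1 exceeded. Its difference was 0.23 ± 0.08 (SE) without control mouse 1 and 0.14 ± 0.11 (SE) with 10 arrays. Hoxb4 differed by 0.15 ± 0.12 (SE) without control mouse 1 and by 0.0045 ± 0.17 (SE) with 10 arrays, which turned to -0.05 without stressed mouse 1 and to -0.04 without stressed mouse 4. Hoxb9 differed by 0.14 ± 0.09 (SE) without control mouse 1 and by 0.02 ± 0.13 (SE) with 10 arrays, which turned to -0.02 and -0.0077 without those stressed mice.

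Hoxa3, known for the patterning of pharyngeal arch derivatives such as thymus and parathyroid, was lower in stressed mice in both comparisons. It was at 5.18, 5.09, 5.29, 5.23 and 5.37 in stressed mice, against 5.54, 5.34, 5.55, 5.49 and 5.73 in control mice. Stressed mouse 5 was above control mouse 2, and otherwise the groups did not overlap. The means were 5.23 ± 0.11 (SD, n = 5) in stressed mice and 5.53 ± 0.14 (SD, n = 5) in control mice. The limma difference was -0.29 ± 0.09 (SE) with 10 arrays, at an adjusted p of 0.425, and -0.29 ± 0.09 (SE) without control mouse 1, at an adjusted p of 0.140. A second probe set of Hoxa3, around the floor, was at 3.95 to 4.18 in stressed mice and at 4.21 to 4.30 in control mice, without overlap, as were 0.952% of the 23541 probe sets above the floor in that direction. Another probe set of Hoxa3, below the floor on average, was at 3.65 to 4.18 in stressed mice and at 3.27 to 5.28 in control mice, and the groups overlapped.

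**Figure D3:**
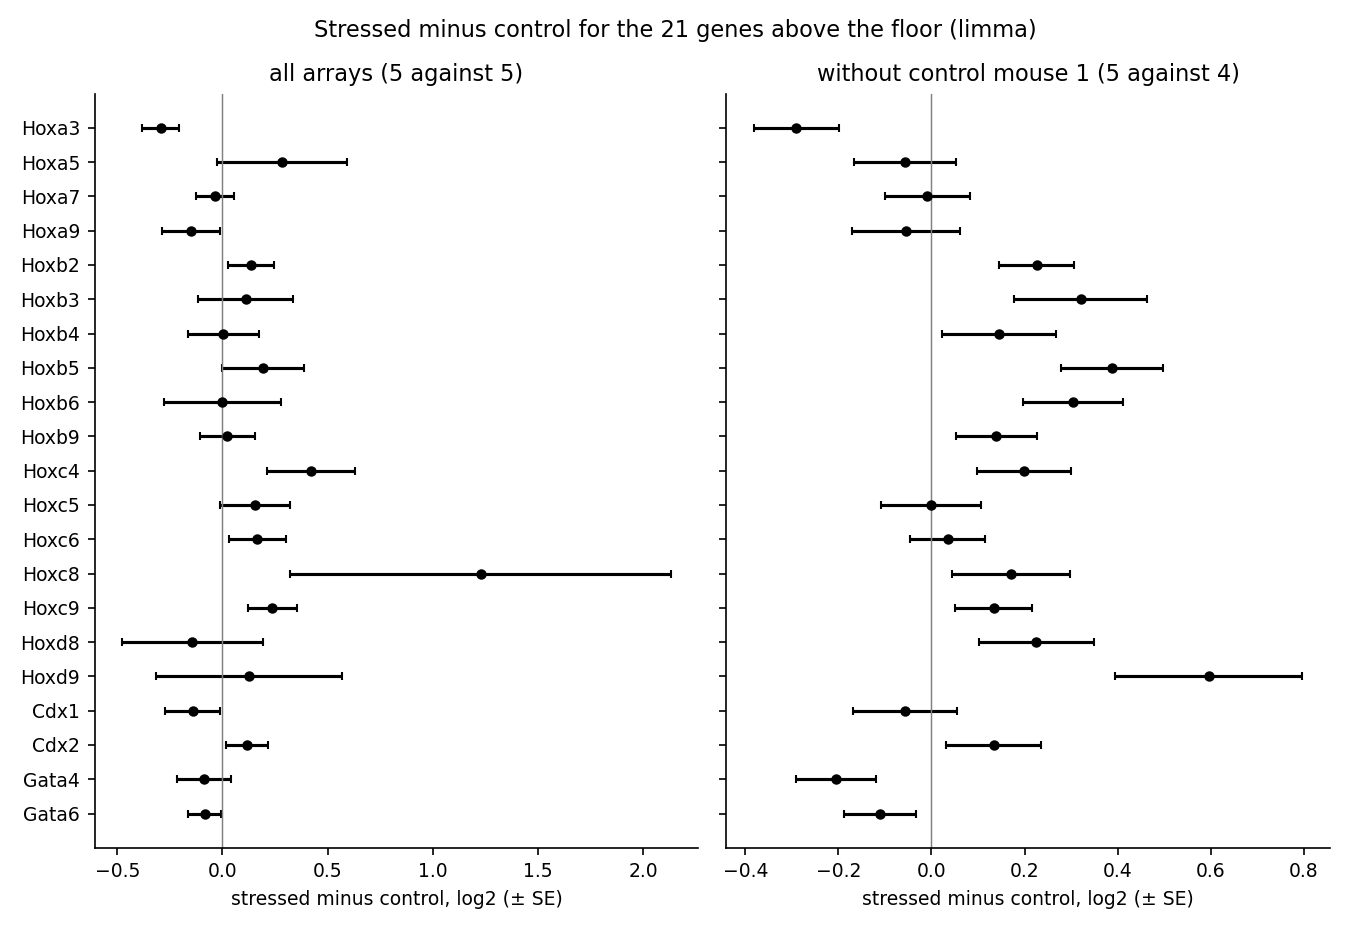
Limma difference (stressed minus control, log2) and its standard error for the 21 genes above the floor, with all 10 arrays in the left panel and without control mouse 1 in the right panel, whose scales differ. Hoxa3 lies below 0 in both panels, and Hoxd9 has the largest positive difference without control mouse 1, at 0.60.

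Differences of the 5 Hoxc genes above the floor between stressed and control mice were smaller once control mouse 1 was left out. Hoxc8 differed by 1.23 ± 0.90 (SE) with 10 arrays and, leaving control mouse 1 aside, by 0.17 ± 0.13 (SE). Hoxc4 was at 6.28, 5.96, 6.04, 6.32 and 6.05 in stressed mice, against 4.83, 5.90, 5.89, 5.80 and 6.14 in control mice, with differences of 0.42 ± 0.21 (SE) and 0.20 ± 0.10 (SE). Control mouse 5 lay among the stressed mice. Hoxc5 was at 5.34, 5.42, 5.50, 5.29 and 5.57 in stressed mice, against 4.66, 5.27, 5.61, 5.63 and 5.20 in control mice. It differed by 0.15 ± 0.17 (SE) with 10 arrays and, leaving control mouse 1 aside, by -0.0004 ± 0.11 (SE). Hoxd8 was at 6.74, 6.33, 6.61, 6.79 and 6.24 in stressed mice, against 8.16, 6.39, 6.35, 6.40 and 6.11 in control mice. Its difference was -0.14 ± 0.33 (SE) with 10 arrays and 0.23 ± 0.12 (SE) without control mouse 1. On this probe set the sign thus went with that mouse. Without stressed mice 1 and 4 as well as control mouse 1 the difference was 0.08 ± 0.11 (SE). A second probe set of Hoxd8 was higher in stressed mice in both comparisons. It differed by 0.06 ± 0.28 (SE) with 10 arrays. Without control mouse 1 it differed by 0.37 ± 0.13 (SE) at a limma adjusted p of 0.19.

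Probe sets of the same gene also disagreed for Hoxa9 and Hoxa5. Hoxa9, a posterior gene also active in blood progenitors, was represented by a probe set at 5.14 to 5.40 in stressed mice and at 5.05 to 5.56 in control mice 2 to 5. Its other probe set was at 5.41, 4.76, 5.07, 5.78 and 4.76 in stressed mice, against 6.93, 4.50, 4.20, 3.66 and 4.07 in control mice. On the second probe set every stressed mouse was above control mice 2 to 5, of which mice 4 and 5 were below the floor, a separation upward that 4.14% of probe sets had. Stressed mice 1 and 4 were highest after control mouse 1, as for Hoxd9. Tested with all 23541 probe sets above the floor, its limma difference without control mouse 1 was 1.05 ± 0.22 (SE) at an adjusted p of 0.0712, where 0.272% of probe sets were called. With 10 arrays the second probe set differed by 0.48 ± 0.52 (SE) at a limma adjusted p of 0.849, and without stressed mouse 4 as well as control mouse 1 by 0.89 ± 0.19 (SE) at a limma adjusted p of 0.147. The first probe set differed by -0.05 ± 0.12 (SE) without control mouse 1 and by -0.15 ± 0.14 (SE) with 10 arrays. Hoxa5, a gene of lung and gut mesenchyme, was at 9.24, 8.83, 9.06, 8.71 and 8.95 in stressed mice, against 7.31, 9.05, 9.15, 8.85 and 9.003 in control mice. Its other probe set was at 7.27, 6.83, 6.84, 6.99 and 6.69 in stressed mice, against 7.28, 6.58, 6.38, 6.25 and 6.73 in control mice. Control mouse 1 was thus lowest on the first probe set of Hoxa5 and highest on the second. The first carries the suffix that the manufacturer gives to probe sets whose probes can match other transcripts.

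**Figure D4:**
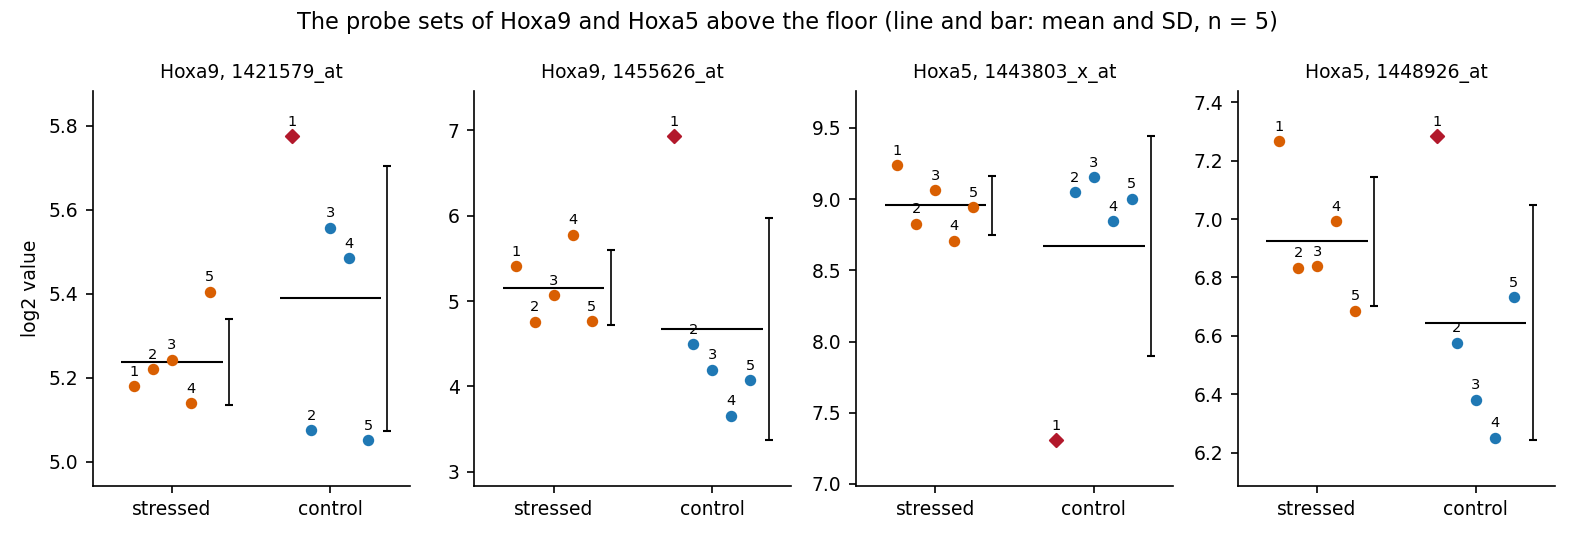
Log2 values of the probe sets of Hoxa9 and Hoxa5 by mouse, stressed mice on the left and control mice on the right of each panel, with the mean as a line and the SD over 5 mice as a bar. The second probe set of Hoxa9 separates stressed mice from control mice 2 to 5, and the first does not.

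Among the mice other than control mouse 1, stressed mice 1 and 4 carried most of the high Hox values. Stressed mouse 1 was highest of the 9 arrays for 6 and stressed mouse 4 for 7 of the 17 Hox genes. The share of all tested genes that were highest in these mice was not computed. The counts can therefore not be called particular to Hox genes. The mean of 8 smooth muscle markers (among them Myh11, Acta2 and Des) was at 10.89, 10.15, 10.16, 10.51 and 9.93 in stressed mice, against 11.41, 10.32, 10.20, 10.13 and 10.52 in control mice. Control mouse 1 and stressed mouse 1 were the highest there too. All 8 smooth muscle markers were highest in control mouse 1, where 34.6% of all tested genes were. With that mean as a covariate, and without control mouse 1, Hoxd9 differed by 0.57 ± 0.16 (SE) and Hoxb6 by 0.29 ± 0.09 (SE). These were close to the differences without the covariate. The smooth muscle mean was 10.33 in stressed mice and 10.29 in control mice 2 to 5, so it could hardly move these differences. The covariate therefore cannot show what part smooth muscle has in them. Fibroblast markers ranged from 8.88 to 9.50 in stressed mice and from 8.92 to 9.21 in control mice 2 to 5, with 9.69 in control mouse 1. Enteric neuron and glia markers ranged from 5.65 to 6.15 in stressed mice and from 5.51 to 5.71 in control mice 2 to 5, with 6.24 in control mouse 1. None of the 22 genes of these 3 lists above the floor was called in either limma comparison. At an unadjusted p under 0.05 were 1 of the 22, lower, with 10 arrays (3.96% of all tested genes) and 2, higher, without control mouse 1 (11.4%). The part of the fibroblast and neuron markers in the Hox differences was not tested.

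None of the 4 gut position factors above the floor passed the test between stressed and control mice. Cdx2, the main regulator of intestinal identity in the epithelium, was at 10.40, 10.30, 10.10, 10.42 and 10.12 in stressed mice, against 10.22, 10.14, 10.11, 10.34 and 9.93 in control mice. Control mouse 1 was within the range of the others for Cdx2, unlike for most Hox genes. The limma difference was 0.12 ± 0.10 (SE) with 10 arrays and 0.13 ± 0.10 (SE) without control mouse 1. Cdx1, its relative with a stronger crypt expression, was at 8.87, 8.71, 8.53, 8.79 and 8.30 in stressed mice, against 9.12, 8.74, 8.79, 8.66 and 8.61 in control mice. Cdx1 was highest in control mouse 1, and it differed by -0.14 ± 0.13 (SE) with 10 arrays and, that mouse aside, by -0.06 ± 0.11 (SE).

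Gata6, of the whole intestinal epithelium, was at 8.45, 8.79, 8.64, 8.59 and 8.68 in stressed mice, against 8.60, 8.74, 8.78, 8.71 and 8.72 in control mice. The groups overlapped, with a limma difference of -0.08 ± 0.08 (SE) with 10 arrays and -0.11 ± 0.08 (SE) without control mouse 1. Gata4, the factor of proximal small intestine, was near the floor at 4.45, 4.60, 4.62, 4.35 and 4.32 in stressed mice, against 4.09, 4.61, 4.79, 4.62 and 4.68 in control mice. Control mouse 1 was the lowest array and the only one below the floor. Gata4 averaged 4.47 ± 0.14 (SD, n = 5) in stressed mice and 4.67 ± 0.08 (SD, n = 4) in control mice 2 to 5, a limma difference of -0.21 ± 0.09 (SE) at an adjusted p of 0.236. With 10 arrays it was -0.09 ± 0.13 (SE). Pdx1, the duodenal and pancreatic factor, was below the floor in every array, at 3.12, 3.53, 3.52, 3.53 and 3.44 in stressed mice, against 3.16, 3.62, 3.74, 3.68 and 3.94 in control mice. Stressed mouse 1 and control mouse 1 were its lowest arrays. Every stressed mouse was below control mice 2 to 5, as were 2.72% of the tested genes, which do not include Pdx1. Without the filter, its limma difference was -0.32 ± 0.10 (SE) at an adjusted p of 0.179 without control mouse 1. With 10 arrays it was -0.20 ± 0.14 (SE) at a limma adjusted p of 0.783.

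Partners of the Hox proteins were read beside them. The cofactor list held Pbx and Meis family genes, which bind DNA together with Hox proteins, and 7 of its 9 genes were above the floor. All 7 were higher in stressed mice in both comparisons (50.9% of all tested genes with 10 arrays, 56.2% without control mouse 1). Limma called 0 of them. At an unadjusted p under 0.05 there were 1 with 10 arrays and 4 without control mouse 1, all higher (3.86% and 11.4% of all tested genes). The median difference was 0.18 in both comparisons. Meis2 was at 7.55, 7.13, 7.24, 7.47 and 6.95 in stressed mice, against 7.74, 6.91, 6.43, 6.60 and 7.04 in control mice, and differed by 0.52 ± 0.15 (SE), control mouse 1 aside, at a limma adjusted p of 0.111, and by 0.32 ± 0.22 (SE) with 10 arrays. Meis1 differed by 0.47 ± 0.16 (SE) without control mouse 1 and by 0.27 ± 0.23 (SE) with 10 arrays, with stressed mice 1 and 4 highest after control mouse 1. Pbx2 was at 7.28 to 7.34 in stressed mice, above every control mouse at 7.02 to 7.16, with a limma difference of 0.18 and an adjusted p of 0.496 with 10 arrays, and of 0.16 and 0.212 without control mouse 1. Such a separation upward with 10 arrays was found in 1.16% of all tested genes.

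Other transcription factors of the gut wall were read from lists as well. Of 9 mesenchymal factors above the floor, 8 were higher in stressed mice in both comparisons (50.9% of all tested genes with 10 arrays and 56.2% without control mouse 1), and 0 were called by limma. At an unadjusted p under 0.05 were 1 with 10 arrays (3.86% of all tested genes) and 4 without control mouse 1 (11.4%), all higher. Foxf1, a factor of gut mesoderm, was at 8.25, 8.14, 8.14, 8.20 and 8.09 in stressed mice, against 8.38, 7.79, 7.50, 7.83 and 8.08 in control mice. Without control mouse 1 it differed by 0.36 ± 0.10 (SE) at a limma adjusted p of 0.111, and every stressed mouse was above control mice 2 to 5, as for 4.51% of all tested genes. With 10 arrays it differed by 0.25 ± 0.14 (SE). Of 13 epithelial factors other than the 5 described, 4 were higher in stressed mice with 10 arrays, where 50.9% of all tested genes were. Without control mouse 1, 8 of the 13 were higher, where 56.2% of all tested genes were. Limma called 0 of the 13 in either comparison (0.0% of all tested genes with 10 arrays and 0.798% without control mouse 1). Elf3, an epithelial Ets factor, was at 8.75 to 9.13 in stressed mice and at 9.20 to 9.70 in all 5 control mice, with a limma difference of -0.38 and an adjusted p of 0.408 with 10 arrays, and of -0.39 and 0.111 without control mouse 1. Such a separation downward was found in 1.12% of all tested genes with 10 arrays and in 2.72% without control mouse 1. Of 16 Polycomb and Trithorax regulators, which maintain the silent or active state of Hox genes, 0 were called in either limma comparison. At an unadjusted limma p under 0.05 there were also 0, where 7.82% of all tested genes were with 10 arrays and 18.0% without control mouse 1. Their median difference was 0.03 with 10 arrays and 0.05 without control mouse 1, against 0.003 and 0.03 over all tested genes.

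Markers of intestinal region set the Hox values of 2 arrays beside those of the rest. The distal ileum list (10 genes, among them Fabp6, Slc10a2 and Fgf15) averaged 10.57 to 10.98 in stressed mice and 10.41 to 10.64 in control mice 2 to 5, with 8.41 in control mouse 1. In control mouse 1, 9 of the 10 were lower than in any other array, as were 18.6% of all tested genes. The large intestine list (10 of 12 on the array above the floor) averaged 7.20, 6.99, 7.12, 8.77 and 7.26 in stressed mice, against 9.66, 6.86, 7.01, 6.95 and 6.83 in control mice. Stressed mouse 4 and control mouse 1 were high in that mean. In control mouse 1, 7 of the 10 genes were higher than in any other array, as were 34.6% of all tested genes. Among the stressed mice, mouse 4 was highest for Car1, Slc26a3, Aqp8, Sycn, Cyp2c55, Mettl7b and B4galnt2. It was the lowest of them for Insl5, Fxyd4 and Scnn1b, so the list was not raised in it as a whole. Aqp8, a water channel of colonic epithelium, was at 7.26 in stressed mouse 4 and at 7.50 in control mouse 1, against 4.15 to 4.49 in the other arrays. Cyp2c55 was at 11.62 in stressed mouse 4 and at 13.05 in control mouse 1, against 5.78 to 8.63 in the others. Scnn1g and Atp12a of this list were below the floor on average. Ileal markers were present in stressed mouse 4, and its distal ileum mean of 10.70 was within the range of the other stressed mice. Fabp6 was at 13.94 in it, the lowest of the stressed mice, and at 7.88 in control mouse 1. Cubn, which takes up intrinsic factor with vitamin B12, was at 11.27 in it, the highest of the stressed mice, and at 7.18 in control mouse 1. How far material from the large intestine enters the Hox values of these arrays was not tested.

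**Figure D5:**
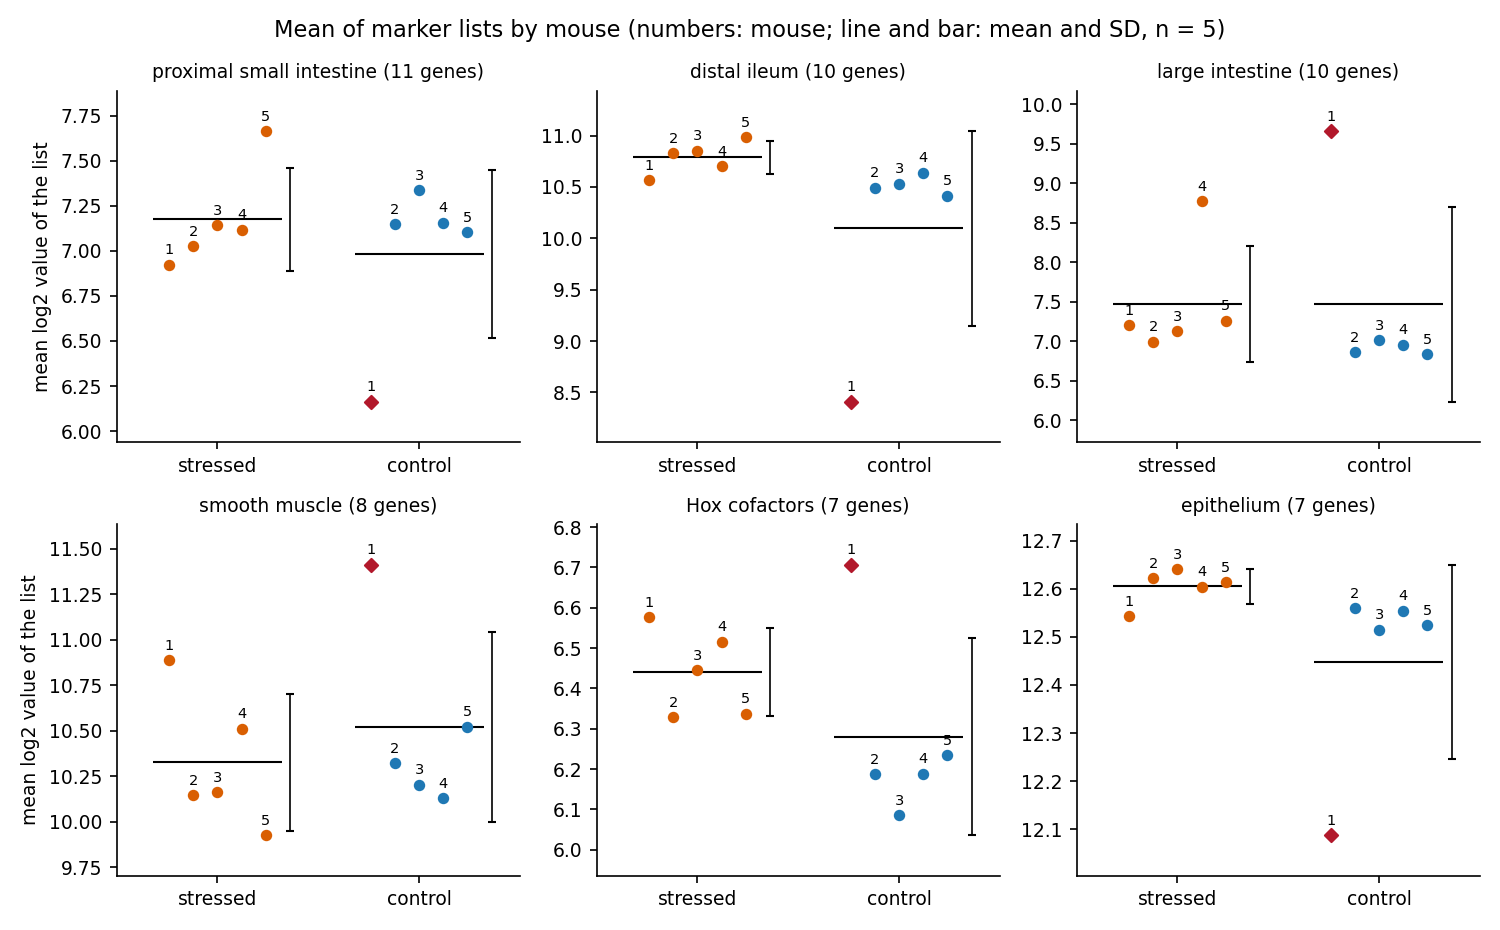
Mean log2 value of 6 marker lists by mouse, stressed mice on the left and control mice on the right of each panel, with the mouse number beside each point, the mean as a line and the SD over 5 mice as a bar. Control mouse 1 is lowest for the distal ileum list at 8.41 and highest for the large intestine list at 9.66, and stressed mouse 4 is second for the large intestine list at 8.77.

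Between stressed and control mice the region lists gave few calls, all without control mouse 1. In the distal ileum list 2 of 10 genes rose, the hormone gene Fgf15 by 1.73 ± 0.32 (SE) at a limma adjusted p of 0.0347 and the vitamin B12 receptor gene Cubn by 0.70 ± 0.11 (SE) at a limma adjusted p of 0.0245 (0.263% of all tested genes rose). In the proximal list 2 of 11 genes were called, both lower (0.534% of all tested genes were). The gut hormone gene Cck fell by 0.52 ± 0.09 (SE) at a limma adjusted p of 0.0301. The iron exporter Slc40a1 fell by 0.89 ± 0.17 (SE) at a limma adjusted p of 0.0365. Directions within both lists were mixed. Of the 11 proximal genes, 7 had a difference above 0 in each comparison. Of the 10 distal ileum genes, 6 had one when control mouse 1 was left out, and 8 when it was kept. Over all tested genes these shares were 56.2% and 50.9%. With 10 arrays Fgf15 and Cubn differed by 2.41 and 1.35, with limma adjusted p of 0.373 and 0.600, and Cck and Slc40a1 by -0.24 and -1.07, with limma adjusted p of 0.847 and 0.301. Of the large intestine list 0 of 10 were called in either comparison, and 3 were at an unadjusted p under 0.05 without control mouse 1, all higher (11.4% of all tested genes). Without stressed mouse 4 as well there were also 3, all higher (7.71% of all tested genes). Epithelium markers ranged from 12.54 to 12.64 in stressed mice and from 12.51 to 12.56 in control mice 2 to 5, with 12.09 in control mouse 1, and 0 of 7 were called. Of 6 lymphoid markers 1 was called without control mouse 1, Jchain, lower by 0.85 ± 0.15 (SE) at a limma adjusted p of 0.0342. It differed by -0.50 with 10 arrays. At an unadjusted limma p under 0.05, 5 of the 6 were lower without control mouse 1 (6.56% of all tested genes). With 10 arrays 3 were lower (3.96%). The lymphoid list averaged 6.26 to 6.62 in stressed mice and 6.75 to 7.34 in control mice 2 to 5, with 6.31 in control mouse 1. With each further mouse left out in turn, the calls of single genes held in 6 of 9 fits for Cubn, 3 for Jchain, 2 for Cck and 1 each for Fgf15 and Slc40a1. Without stressed mouse 4 as well, none of the 5 was called, with a limma adjusted p of 0.0694 for Cubn, 0.0694 for Cck, 0.0875 for Fgf15, 0.0969 for Jchain and 0.102 for Slc40a1. Pancreatic acinar markers ranged from 5.34 to 5.59 in stressed mice and from 5.35 to 6.66 in control mice, where control mouse 5 was highest, and 0 of 6 were called.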

How the data were processed

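Log2 values for every probe set and all 10 arrays came from the authors in 1 deposited table, made with RMA per the submitters' processing notes. RMA commonly combines background correction, quantile normalization and a summary per probe set; its settings are not stated here. The sources used here give no software, version or log base; base 2 was taken from the range of the values, 1.22 to 14.4. It brings arrays to a common distribution and understates changes of dim probe sets. Labelled cRNA came from 100 ng of total RNA per the labels' protocols. Precision is limited by the number of arrays, whose medians lay between 4.78 and 4.82.

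Titles of the samples gave group and mouse number, and p-values measure the spread between these mice. Gene names came from the platform annotation: 34945 of 45101 probe sets carried 1 symbol, 932 several and 9160 none, and 64 were controls. Probe sets with several symbols were not used for genes. The probe set of largest mean stood for a gene, and the lowest 40 percent of probe sets were left out. The comparison of stressed with control mice used limma 3.58.1 (lmFit, eBayes) under R 4.3.3 over 13666 genes, and Benjamini-Hochberg adjusted p under 0.05 counted as called. The fit was tested on simulated data. Differences are log2, stressed minus control, with limma's standard error. Values in every array are given for Cdx1, Cdx2, Gata4, Gata6 and Pdx1, for the 8 Hox genes above the floor that differed most between control mouse 1 and the other arrays, and for the 6 with the smallest p in either comparison. Genes of the other lists could be named if called, else up to 4 by p, and in the region lists also up to 4 by the difference of control mouse 1. Per-array values of Hoxa10, Hoxc10, Hoxd10 and the further probe sets of Hoxa3, Hoxa5 and Hoxa9 were chosen after they were seen. So were the genes of the large intestine list named for stressed mouse 4. Lists and members were chosen with earlier results of these data known. Alternatives left out each mouse, changed the filter or the probe set rule, weighted arrays or blocked on the mouse number, and, after the data had been seen, used smooth muscle as a covariate, tested every probe set or left out stressed mice 1 and 4.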

Additional observations from a re-analysis of the deposited data

Results flagged for a closer look

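A mouse was singled out where its gap to the nearest mouse of its group, divided by the range of the group, passed Dixon's critical value of 0.71 for 5 mice. This was so in 23 of 78 groups, from 26 genes and 13 list means in each condition. The 26 were the 21 genes above the floor, Hoxa10, Hoxc10, Hoxd10, Hoxd13 and Pdx1. Chance flags about 1 in 20 independent groups, which is no expectation for this count: 18 of the 23 were the array of control mouse 1 in genes and lists that share it, and Hoxa10, Hoxc10 and Hoxd10 were read because 1 or 2 arrays passed the floor.

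Control mouse 1 stood above the other control mice for Hoxa10 at 5.01, Hoxb5 at 7.65, Hoxb6 at 8.72, Hoxb9 at 8.27, Hoxd8 at 8.16, Hoxd9 at 7.28 and Hoxd10 at 7.30. It stood below them for Hoxa5 at 7.31, Hoxc4 at 4.83, Hoxc6 at 5.28, Hoxc8 at 2.61 and Gata4 at 4.09. Among the list means it was above them for Hox cofactors at 6.71, large intestine at 9.66 and enteric neurons and glia at 6.24, and below them for proximal small intestine at 6.16, distal ileum at 8.41 and epithelium at 12.09.

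Stressed mouse 1 was apart for Hoxc10 at 4.98, with the next stressed mouse at 3.99, and for Pdx1 at 3.12, with the next at 3.44. Stressed mouse 4 was apart for the large intestine list at 8.77, with the next at 7.26. Stressed mouse 5 had the lowest chromatin regulator mean at 7.24, and control mouse 5 the highest acinar mean at 6.66. The causes were not tested.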

How the results depend on the processing

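None of the 21 genes was called under any alternative with 10 arrays, where the smallest limma adjusted p was 0.104. Without control mouse 1 the smooth muscle covariate called 1, Hoxb5, and the other alternatives called 0. Over all genes, 0 were called with 10 arrays, 2 with the mean of the probe sets, 41 with array weights and 0 to 109 with each mouse left out, where 109 is the count without control mouse 1. Without control mouse 1, 109 genes were called, 334 with the smooth muscle covariate, 64 of all probe sets tested singly, 0 without stressed mice 1 and 4, and 6 (without stressed mouse 4) to 154 (without stressed mouse 2) with each further mouse left out. Signs changed with 10 arrays for Hoxb6 (0.26 with array weights and 0.19 with the covariate) and Hoxd8 (0.183 and 0.076). With each mouse left out the 10-array differences ranged from -0.058 to 0.40 for Hoxa5, -0.056 to 0.32 for Hoxb3, -0.091 to 0.30 for Hoxb6, -0.0004 to 0.24 for Hoxc5, -0.29 to 0.23 for Hoxd8 and -0.040 to 0.60 for Hoxd9. Without control mouse 1 Hoxa5 was 0.19 with the mean of its probe sets, and Hoxc5, at -0.0004, was 0.052 with that mean, 0.050 with array weights, 0.020 with the replicate block and 0.012 with the covariate. With further mice left out Cdx1 ranged from -0.18 to 0.027, Hoxa5 from -0.13 to 0.0044 and Hoxc5 from -0.077 to 0.072. The cause of these shifts was not tested. Without the filter, 17 of 33 Hox genes were highest in control mouse 1, in place of 9 of 17. With the floor at the lowest 60 percent of probe sets, 12 Hox genes were above it. Mouse numbers did not pair the mice (same-number correlations of deviations -0.297 to 0.277). With the replicate block, 0 genes were called with 10 arrays and 95 without control mouse 1, and 0 of the 21 in both. Probe sets near the floor carry little signal over background, which limits Gata4, Pdx1 and the Hox genes of paralogs 10 to 13.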

Other observations

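Some probe sets of the Hox clusters carried another name or several names and were left out above. The probe set of Hoxb5os, an antisense transcript of the Hoxb cluster, was at 8.39 in control mouse 1 and at 5.71 to 6.44 in the other 9 arrays. A probe set shared by Hoxb8 and Hoxb7 was at 7.87 in control mouse 1 and at 6.49 to 7.21 in the others, and 1 shared by Hoxd4 and Hoxd3 was at 5.43 and at 3.83 to 4.71. A second one shared by Hoxd4 and Hoxd3 was at 5.12 in control mouse 1, within the 4.46 to 5.15 of the others. Hoxd3os1 was at 4.64 in control mouse 1 and at 2.76 to 4.01 in the others.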
